A study of Mus musculus with 4 samples.

Results

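The genes of the collagen chains were compared between C2C12 myoblasts, a mouse myoblast cell line, carrying *Hnrnpl* shRNA and C2C12 myoblasts carrying scrambled shRNA. The members were all protein-coding mouse genes named Col, a number, a and a number (*Col1a2*, *Col12a1* and so on), which gave 44 of the 56748 gene IDs in the count files. Direct RNA sequencing on nanopores was performed on 4 libraries, 2 per group, all labelled WT in genotype. The knockdown cells received a cocktail of 3 shRNAs against *Hnrnpl*, an RNA-binding protein that regulates splicing and mRNA stability, and the control cells a scrambled shRNA. In both groups the plasmid carried eGFP, clones were isolated, and puromycin selected a stable line. Both libraries of a group are passages of 1 selected line, so the p-values measure the spread between passages, and a difference between the lines that the shRNA did not make cannot be told apart from the knockdown. All cells were myoblasts kept in growth medium.

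Collagens are secreted proteins in which 3 chains wind around each other into a triple helix. The helix requires a glycine in each triplet of residues, since only glycine fits at the centre. The helical parts of the chains therefore consist of runs of Gly-X-Y triplets. Fibrillar collagens (types I, III and V here) assemble into the banded fibrils of connective tissue, type IV forms the network of basement membranes, type VI forms beaded filaments around muscle fibers, type VIII is a short-chain collagen that forms networks, and collagens with an interrupted helix such as type XII (the FACIT class) lie on the surface of fibrils. In skeletal muscle most collagen is made by fibroblasts, and type IV and VI collagen surround each fiber.

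The helix is written into the exons of these genes. In the GENCODE vM39 annotation of GRCm39, the longest uninterrupted Gly-X-Y run was 337 to 344 triplets in the 5 fibrillar chains tested here. It was 216 to 344 triplets over all 11 fibrillar chains and 23 to 113 in the 33 chains of the other classes. Coding exons that lie wholly within runs of at least 5 triplets are called helix exons. All 225 helix exons of the 5 tested fibrillar genes had a length that was a multiple of 9 bases, that is, a whole number of Gly-X-Y triplets. Of these exons, 131 were 54 bases long. Among the 588 helix exons of the other classes, 552 had a multiple of 9 bases and 151 were 54 bases long. One 54-base exon is shown for each of the 5 tested fibrillar chains and for *Col12a1*. Of these genes, *Col1a2*, *Col5a1*, *Col5a3* and *Col12a1* were called lower in knockdown by the thresholds given below. A 54-base helix exon is also present in *Col4a1*, *Col4a2*, *Col6a1*, *Col6a2*, *Col6a3*, *Col7a1* and *Col18a1*, none of which was called. Each exon shown is written 5′ to 3′ on the coding strand, with the glycine codons that open its 6 triplets in capitals.
Col1a2 (coding exon 8, chr6:4515481-4515534, forward strand): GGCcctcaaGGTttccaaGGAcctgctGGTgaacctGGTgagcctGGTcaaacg
Col5a1 (coding exon 15, chr2:27855263-27855316, forward strand): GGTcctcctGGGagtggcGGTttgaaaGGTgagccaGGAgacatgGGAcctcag
Col5a3 (coding exon 15, chr9:20712364-20712417, reverse strand): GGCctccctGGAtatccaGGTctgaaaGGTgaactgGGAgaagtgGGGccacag
Col3a1 (coding exon 6, chr1:45364520-45364573, forward strand): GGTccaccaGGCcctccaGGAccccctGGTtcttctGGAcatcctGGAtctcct
Col5a2 (coding exon 6, chr1:45474052-45474105, reverse strand): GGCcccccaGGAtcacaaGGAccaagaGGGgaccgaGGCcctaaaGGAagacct
Col12a1 (coding exon 54, chr9:79521631-79521684, reverse strand): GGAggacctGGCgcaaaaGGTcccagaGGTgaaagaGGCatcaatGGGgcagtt
In *Col5a1* and *Col12a1* a further glycine codon inside a triplet is in lower case. *Col5a1* and *Col5a3*, both chains of type V collagen, shared 37 of 54 bases in their fifteenth coding exons. *Col3a1* and *Col5a2*, which are neighbours on chromosome 1, shared 29 of 54 bases in their sixth. These counts include the GG of the glycine codons in capitals, which all the exons shown have in common. Other pairs were not compared, so the counts do not show a likeness particular to these genes. *Col8a1*, the only collagen gene called higher in knockdown, has only 2 coding exons and no 54-base helix exon, and its longest run is 60 triplets.

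Scrambled 1 and 2 had 1387523 and 1676911 reads counted on genes, and knockdown 1 and 2 had 1374637 and 1229424, so that 0 counts allows up to 1.79 to 2.44 CPM (counts scaled to a library total of 1e6) for counting error alone. *Hnrnpl* itself had 358 and 656 reads in scrambled against 242 and 258 in knockdown, and the log2 difference was -0.78 with a standard error (SE) of 0.18 (quasi-likelihood test in edgeR, adjusted p = 0.0112). Between genes, the median log2 fold change differed by chromosome, from -0.37 on chromosome 9 to 0.30 on chromosome 16 among the chromosomes that hold tested collagen genes, and this median is given for chromosomes with collagen genes whose value it moves. Of the 7 myoblast markers, *Pax7* was at 0 and *Myod1* had 1 read in all, while *Des* and *Myf5* had 113 to 571 reads per library. The summed level of the myoblast markers was 476 and 559 CPM in scrambled and 374 and 313 CPM in knockdown.

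Of the 44 collagen genes, 26 had at least 1 read and 18 had none in any library. The genes with no reads were *Col1a1*, *Col2a1*, *Col4a5*, *Col4a6*, *Col6a4*, *Col6a5*, *Col6a6*, *Col9a1*, *Col9a2*, *Col10a1*, *Col11a1*, *Col13a1*, *Col14a1*, *Col19a1*, *Col23a1*, *Col25a1*, *Col26a1* and *Col28a1*. A further 11 genes had between 1 and 7 reads over all 4 libraries. *Col9a3*, a FACIT chain of cartilage, had 2 and 3 reads in scrambled against 1 and 0 in knockdown, *Col15a1*, *Col17a1* and *Col22a1* had 3 reads each in all, and *Col4a3*, *Col4a4*, *Col8a2*, *Col11a2*, *Col20a1*, *Col24a1* and *Col27a1* had 1 read each. *Col16a1*, another FACIT chain, had 8 and 12 reads in scrambled against 10 and 1 in knockdown and did not pass the filter on low counts. The remaining 14 genes were tested.

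*Col1a1*, which encodes the partner of the *Col1a2* chain in type I collagen, is listed at 0 in all 4 libraries, although *Col1a2* had 105 to 409 reads. This 0 cannot be read as absence of the mRNA. All 20 reference transcripts of *Col1a1* mapped back to GRCm39 with a mapping quality of 60, but other genes that cultured cells are known to use were also at or near 0 in the same files: *Tagln* had 0 to 1 reads, *Ptbp1* 2 to 3 and *Gapdh* 25 to 35. These genes were singled out after their values were seen, and the reason for the low counts was not tested. Type I collagen is therefore described by *Col1a2* alone.

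Collagen reads made up 0.226% (95% exact binomial interval 0.218 to 0.234) of the counted reads in scrambled 1 and 0.201% (0.194 to 0.208) in scrambled 2. In knockdown 1 and 2 the share was 0.215% (0.208 to 0.223) and 0.182% (0.175 to 0.190). *Col1a1* adds no reads to these shares, which are therefore shares of the other collagen chains. The groups overlapped, and the mean difference of -0.0149 percentage points was smaller than the gap between the libraries of either group. Within each labelled batch the knockdown library had the lower share, by a difference of -0.0109 percentage points in batch 1 and -0.0189 in batch 2. Across 7705 genes the batch 1 libraries deviated from their group means with a correlation of -0.014, so no shared batch deviation was seen. The levels of the single chains are plotted per library.

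**Figure D1:**
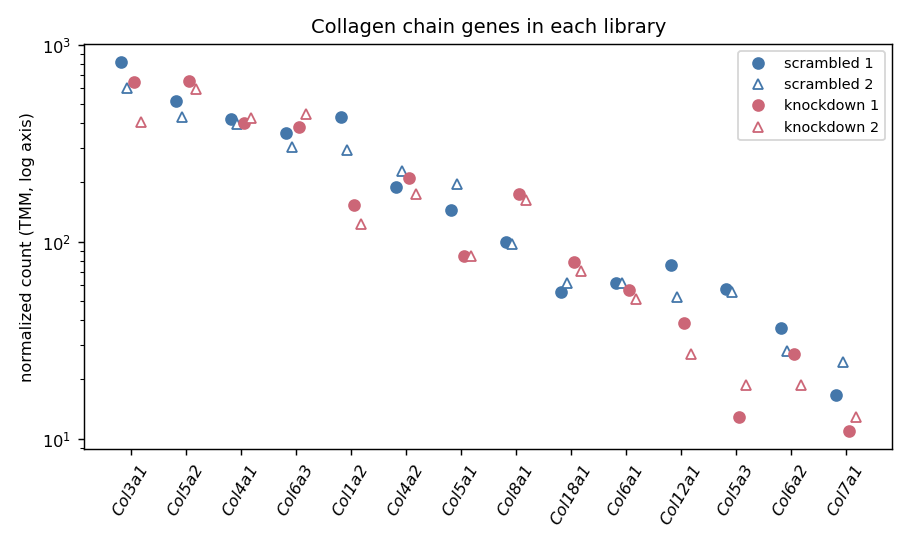
Normalized count (TMM, log axis) of the 14 tested collagen genes in each of the 4 libraries, 1 point per library (blue, scrambled; red, knockdown). The knockdown points of *Col1a2*, *Col5a1*, *Col12a1* and *Col5a3* lie below both scrambled points and those of *Col8a1* above them, and the points of *Col3a1*, *Col4a1* and *Col4a2* overlap between groups.

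Levels of different chains were compared per kilobase of the reference transcript. With *Col1a1* set aside, *Col3a1* was the most abundant chain in the scrambled libraries, with 88.7 ± 16.6 CPM per kilobase (mean ± SD, n = 2). *Col1a2* (46.7 ± 11.7), *Col5a2* (43.6 ± 4.85) and *Col4a1* (43.0 ± 1.07 CPM per kilobase) did not differ from each other beyond their spread, followed by *Col6a3* (25.1 ± 2.39) and *Col4a2* (21.6 ± 3.40). In knockdown *Col3a1* had 67.7 ± 24.0, *Col5a2* 59.2 ± 5.90, *Col4a1* 44.4 ± 0.466 and *Col6a3* 32.2 ± 2.18 CPM per kilobase, and *Col1a2* stood at 18.4 ± 3.51, beside *Col4a2* (20.4 ± 3.39) and below *Col8a1* (23.6 ± 2.07). A direct RNA read starts at the poly(A) tail and stands for about 1 molecule, so that division by length places long transcripts lower than the raw counts do. By raw reads, also with *Col1a1* set aside, *Col3a1* held rank 1 among the collagens in both scrambled libraries. *Col5a2* held rank 2 in both scrambled and rank 1 in both knockdown libraries. *Col1a2* held ranks 3 and 5 by raw reads in scrambled and rank 7 in both knockdown libraries.

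A gene was called where the adjusted p was under 0.05 over the 8670 genes tested, the absolute log2 fold change over 0.5 and the mean normalized count over 10. Of the 14 tested collagen genes, 4 were called lower (*Col1a2*, *Col5a1*, *Col5a3* and *Col12a1*), against 3.22% of all genes tested, and 1 was called higher (*Col8a1*), against 2.33%. At an unadjusted p under 0.05 there were 5 lower, against 11.5% of all genes, and 3 higher, against 10.3%. Both knockdown libraries lay below both scrambled libraries for 7 collagen genes, against 26% of all genes, and above them for 4, against 26.4%, and for 3 the groups overlapped. Without knockdown 1 none of the 5 genes was called (edgeR adjusted p from 0.081 for *Col1a2* to 0.195 for *Col12a1*), in a fit that called 7 genes higher and 13 lower over the whole table. The median log2 fold change was -0.30 over the 14 collagen genes and -0.0006 over all genes tested.

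**Figure D2:**
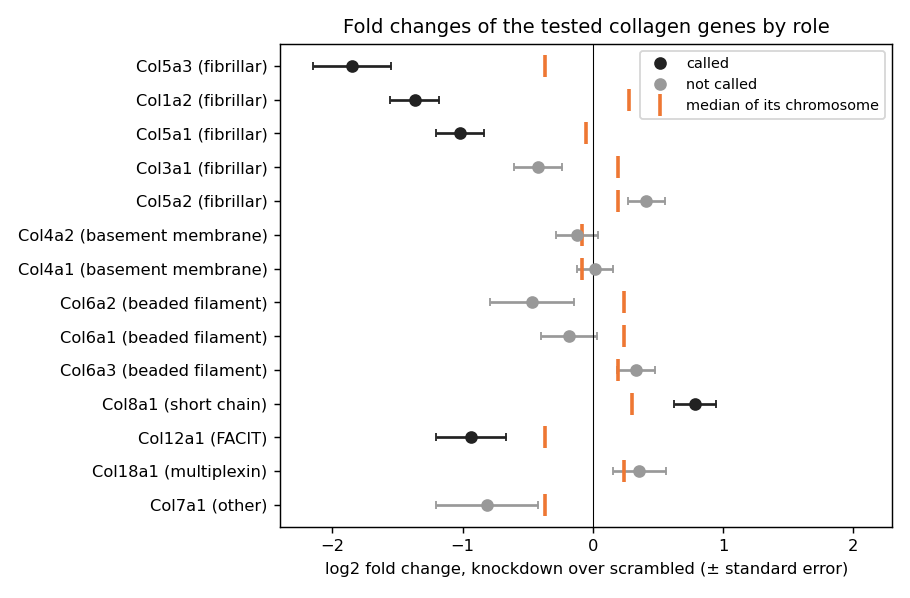
Log2 fold change of knockdown over scrambled for the 14 tested collagen genes, grouped by role, with the standard error as bars (black, called; grey, not called) and the median of all genes on the same chromosome as an orange mark. The 3 fibrillar chains at the top, from -1.85 to -1.02, lie farther from their chromosome's mark than *Col12a1* and *Col8a1* do.

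The fibrillar class held 3 of the 4 lower calls. *Col1a2* (ENSMUSG00000029661.17, chromosome 6 from 4504814 to 4541555, forward strand), the alpha 2 chain of type I collagen, had 409 and 345 reads in scrambled against 154 and 105 in knockdown. On the normalized scale it had 359 ± 97.6 counts in scrambled and 138 ± 21.7 in knockdown (mean ± SD, n = 2 each). Both knockdown libraries were well below both scrambled libraries, and *Col1a2* was 2.58-fold lower in knockdown, a log2 fold change of -1.37 (SE 0.19, edgeR adjusted p = 0.000182). The median log2 fold change of chromosome 6 was 0.28, of the opposite sign, and with the chromosome medians removed the gene stood at -1.64 (edgeR adjusted p = 2.4e-05).

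Type V collagen is a minor fibril component that starts the assembly of type I and III fibrils. It is built from chains of *Col5a1* and *Col5a2*, and in some tissues *Col5a3*. Of its 3 genes, *Col5a1* and *Col5a3* were called lower and *Col5a2* was not called. *Col5a1* (ENSMUSG00000026837.17, chromosome 2 from 27776397 to 27929526, forward strand) had 139 and 232 reads in scrambled against 85 and 72 in knockdown. Both knockdown libraries were lower, by 2.03-fold on the fitted scale (log2 fold change -1.02, SE 0.18, edgeR adjusted p = 0.0021), and the median of chromosome 2 was -0.05.

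*Col5a3* (ENSMUSG00000004098.8, chromosome 9 from 20681337 to 20726418, reverse strand) had 55 and 66 reads in scrambled against 13 and 16 in knockdown. It had the lowest log2 fold change of the 14 genes, -1.85 (SE 0.30, edgeR adjusted p = 0.000942), a level 3.59-fold lower in knockdown. Chromosome 9 had a median of -0.37, and the value after removing the medians was -1.48 (edgeR adjusted p = 0.00687).

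*Col5a2* (chromosome 1 from 45412554 to 45542442, reverse strand) had 493 and 509 reads in scrambled against 658 and 511 in knockdown. After normalization both knockdown libraries, at 656 and 597, lay above both scrambled libraries, at 516 and 428. Its log2 fold change of 0.41 (SE 0.14, unadjusted p = 0.00935, edgeR adjusted p = 0.0942) did not pass the test, and the median of chromosome 1 was 0.19.

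*Col3a1*, the only chain of type III collagen, lies 16713 bases from *Col5a2* on the opposite strand of chromosome 1 (45350698 to 45395840). It had 775 and 718 reads in scrambled against 648 and 347 in knockdown. Knockdown 1, at a normalized count of 646, lay between scrambled 1 at 811 and scrambled 2 at 604. Within each labelled batch the knockdown library was lower, at 646 against 811 in batch 1 and 406 against 604 in batch 2. The log2 fold change was -0.42 (SE 0.18, unadjusted p = 0.0336, edgeR adjusted p = 0.186). Without scrambled 2 it was -0.63 with an edgeR adjusted p of 0.0269, the only 1 of 13 alternatives under which *Col3a1* was called. It was -0.20 without scrambled 1, -0.80 without knockdown 1 and -0.13 without knockdown 2, none past the test, so the size of the difference depends on single libraries.

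Read ratios between chains were taken within each library, where library size cancels. Shifts shared by the genes of a chromosome do not cancel where the chains lie on different chromosomes. The chromosome medians were -0.37 for *Col5a3*, -0.05 for *Col5a1*, 0.19 for *Col5a2* and *Col3a1*, and 0.28 for *Col1a2*. The ratio of *Col5a1* to *Col5a2* was 0.282 and 0.456 in scrambled against 0.129 and 0.141 in knockdown. The groups did not overlap, and the log2 ratio was lower by 1.41 in knockdown (log2 difference -1.41, exact two-sided permutation p = 0.333, the smallest that 2 against 2 libraries allow). The ratio of *Col5a3* to *Col5a1* was 0.396 and 0.285 in scrambled against 0.153 and 0.222 in knockdown. For *Col3a1* to *Col1a2* it was 1.89 and 2.08 in scrambled against 4.21 and 3.30 in knockdown, and for *Col3a1* to *Col5a2* 1.57 and 1.41 against 0.985 and 0.679. These 3 last ratios were added after the values were seen, none overlapped between groups, and each has the same exact permutation p of 0.333. In all, 7 ratios were compared, and none could pass a threshold of 0.05 in this design.

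**Figure D3:**
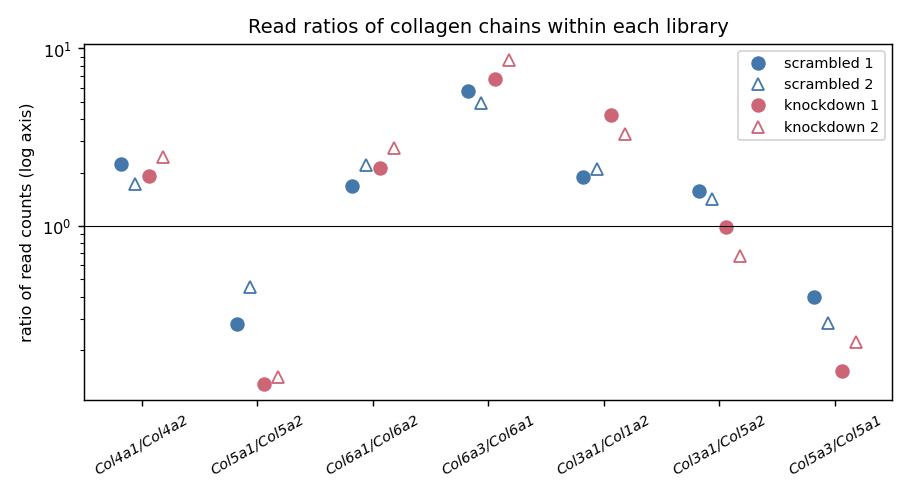
Ratio of the read counts of 2 collagen chains (log axis) for 7 pairs, 1 point per library (blue, scrambled; red, knockdown). The groups do not overlap for *Col5a1*/*Col5a2*, *Col6a3*/*Col6a1*, *Col3a1*/*Col1a2*, *Col3a1*/*Col5a2* and *Col5a3*/*Col5a1*, and they overlap for *Col4a1*/*Col4a2* and *Col6a1*/*Col6a2*.

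The basement membrane chains *Col4a1* and *Col4a2*, which wind together into the common form of type IV collagen, had overlapping groups. *Col4a1* had 402 and 469 reads in scrambled and 401 and 364 in knockdown (log2 fold change 0.02, SE 0.14, edgeR adjusted p = 0.962). *Col4a2* had 180 and 272 reads in scrambled and 211 and 149 in knockdown (log2 fold change -0.12, SE 0.16, edgeR adjusted p = 0.718). The *Col4a1* to *Col4a2* ratio was 2.23 and 1.72 in scrambled and 1.90 and 2.44 in knockdown (exact permutation p = 0.667). Within the labelled batches the directions differed. Normalized *Col4a1* was 400 in knockdown against 421 in scrambled in batch 1, and 425 against 395 in batch 2. Normalized *Col4a2* was 210 against 188 in batch 1 and 174 against 229 in batch 2. The ratio was lower in knockdown in batch 1 and higher in batch 2. Both genes start within 356 shared bases on opposite strands of chromosome 8, and how reads in that stretch were assigned depends on the strand setting of the counting, which is not given in the sources used here.

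Type VI collagen is built from 1 chain each of *Col6a1*, *Col6a2* and, most often, *Col6a3*, and its loss is known to cause muscle disease. *Col6a3* had 339 and 358 reads in scrambled against 384 and 378 in knockdown, and its normalized counts of 383 and 442 in knockdown lay above 355 and 301 in scrambled (log2 fold change 0.33, SE 0.15, unadjusted p = 0.0369, edgeR adjusted p = 0.196). *Col6a1* had 59 and 73 reads in scrambled and 57 and 44 in knockdown (log2 fold change -0.18, edgeR adjusted p = 0.673). *Col6a2* had 35 and 33 in scrambled and 27 and 16 in knockdown (log2 fold change -0.47, edgeR adjusted p = 0.425). For these last 2 chains the normalized counts of both knockdown libraries were below those of both scrambled libraries, though neither difference passed the test. With the chromosome medians removed (0.19 for chromosome 1 and 0.24 for chromosome 10) *Col6a3* stood at 0.14, *Col6a1* at -0.42 and *Col6a2* at -0.70, none past the test. The ratio of *Col6a3* to *Col6a1* was 5.75 and 4.90 in scrambled against 6.74 and 8.59 in knockdown, without overlap (exact permutation p = 0.333). The *Col6a1* to *Col6a2* ratio, at 1.69 and 2.21 in scrambled against 2.11 and 2.75 in knockdown, overlapped (exact permutation p = 0.667). In each labelled batch this ratio was higher in the knockdown library.

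*Col8a1* (ENSMUSG00000068196.6, chromosome 16 from 57444621 to 57575100, reverse strand), a short-chain collagen of vessel walls and of the membrane beneath the corneal endothelium, was the only collagen gene called higher. It had 95 and 115 reads in scrambled against 176 and 139 in knockdown, and the normalized counts were close within each group, 99.5 and 96.7 in scrambled against 175 and 162 in knockdown. The gene was 1.72-fold higher (log2 fold change 0.79, SE 0.16, edgeR adjusted p = 0.00663). The genes of chromosome 16 had a median of 0.30, and with the medians removed *Col8a1* stood at 0.49 and was no longer called (edgeR adjusted p = 0.127).

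*Col12a1* (ENSMUSG00000032332.18, chromosome 9 from 79506268 to 79626135, reverse strand), a FACIT chain of tendon and muscle connective tissue, had 73 and 62 reads in scrambled against 39 and 23 in knockdown. The knockdown libraries lay below the scrambled libraries, with a log2 fold change of -0.93 (SE 0.27, edgeR adjusted p = 0.0471), close to the threshold. The call was lost under 7 of 13 alternative settings, among them removal of the chromosome medians, after which the value was -0.57 (edgeR adjusted p = 0.341). *Col7a1*, the chain of the anchoring fibrils of skin, lies on the same chromosome and had 16 and 29 reads in scrambled and 11 in each knockdown library (log2 fold change -0.81, SE 0.39, edgeR adjusted p = 0.234). *Col18a1*, a basement membrane collagen whose C-terminal fragment is endostatin, had 53 and 73 reads in scrambled against 79 and 61 in knockdown, with normalized counts that did not overlap (log2 fold change 0.36, SE 0.20, edgeR adjusted p = 0.324). The median of chromosome 10 was 0.24, and without the medians *Col18a1* stood at 0.12. It overlaps *Slc19a1* on the opposite strand, which had 76 to 86 reads per library.

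**Figure D4:**
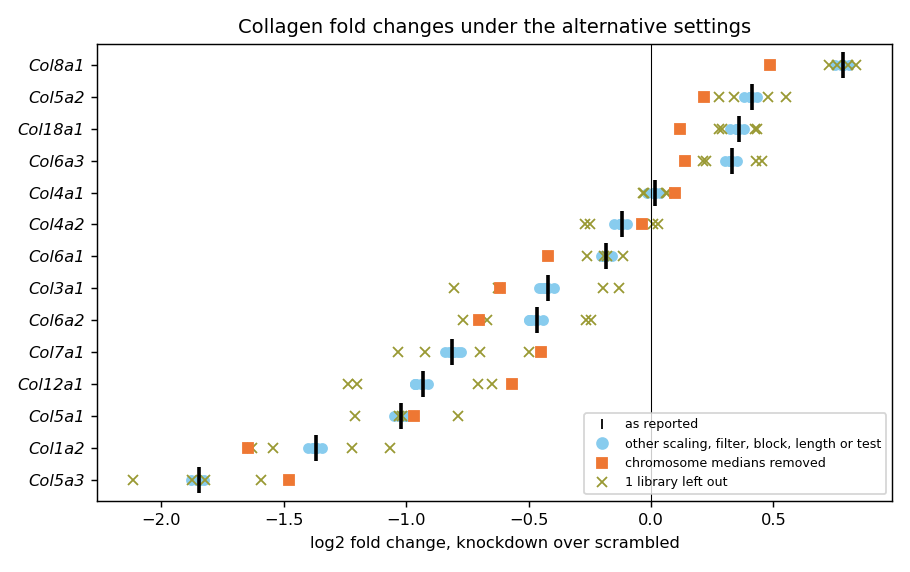
Log2 fold change of knockdown over scrambled for the 14 tested collagen genes as reported (black mark), with chromosome medians removed (orange square), with 1 library left out (green crosses) and under the other 8 settings (blue points). *Col1a2*, *Col5a1*, *Col5a3* and *Col12a1* stay below 0 and *Col8a1* above 0 throughout, while *Col4a1* and *Col4a2* have points on both sides of 0.

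The shares of this paragraph leave out *Col1a1*, a fibrillar chain listed at 0 in all libraries. As shares of all collagen reads, the fibrillar chains made up 59.6% and 55.5% in scrambled against 52.7% and 47.0% in knockdown. *Col1a2* took 13.0% and 10.2% of collagen reads in scrambled and 5.20% and 4.69% in knockdown, while *Col5a2* took 15.7% and 15.1% in scrambled against 22.2% and 22.8% in knockdown. The 95% exact binomial intervals of these *Col1a2* shares, 9.23% to 14.3% in scrambled and 3.85% to 6.07% in knockdown, do not overlap between groups and cover counting error only. Short-chain collagen made up 3.06% and 3.41% in scrambled against 5.95% and 6.21% in knockdown, and FACIT chains 2.71% and 2.28% against 1.76% and 1.07%. Beaded filament chains took 13.8% of the collagen reads in each scrambled library and 15.8% and 19.6% in knockdown. Basement membrane chains overlapped, with 18.5% and 22.0% in scrambled against 20.7% and 22.9% in knockdown. In each labelled batch their share was higher in the knockdown library. Since shares add up to a fixed total, a lower share of one class raises the others.

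**Figure D5:**
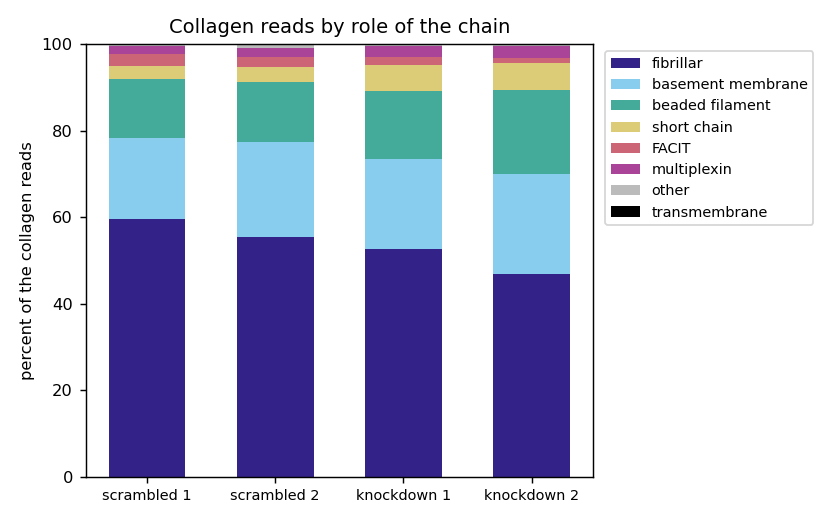
Percent of all collagen reads on chains of each role in each library, stacked to the total, to which *Col1a1* adds no reads. Fibrillar chains (bottom) take 59.6% and 55.5% in scrambled against 52.7% and 47.0% in knockdown, and short-chain collagen takes about 3% in scrambled and about 6% in knockdown.

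Collagen chains are hydroxylated, folded and exported with the help of dedicated enzymes and chaperones, and their ends are cut off outside the cell before cross-linking. Of 40 such genes, 34 had reads and 27 were tested, with 14 higher and 13 lower, a median log2 fold change of 0.03, 1 call higher, against 2.33% of all genes tested, and 2 calls lower, against 3.22%. *Pcolce*, an enhancer of the protease that removes the C-terminal ends of fibrillar procollagen, had 390 and 452 reads in scrambled and 668 and 483 in knockdown (log2 fold change 0.64, SE 0.14, edgeR adjusted p = 0.00934). Its relative *Pcolce2* had 406 and 539 reads in scrambled and 261 and 282 in knockdown (log2 fold change -0.58, edgeR adjusted p = 0.0272). *Plod2*, a lysyl hydroxylase that shapes the cross-links of fibrils, had 126 and 155 in scrambled and 85 and 74 in knockdown (log2 fold change -0.62, edgeR adjusted p = 0.0366). *Pcolce* lies on chromosome 5 (median 0.23) and *Pcolce2* and *Plod2* lie on chromosome 9 (median -0.37). With the chromosome medians removed none of these 3 genes was called: *Pcolce* stood at 0.41 (edgeR adjusted p = 0.134), *Pcolce2* at -0.21 (0.573) and *Plod2* at -0.25 (0.557). None of the 3 was called without scrambled 2 (edgeR adjusted p = 0.0593 for *Pcolce*, 0.0889 for *Pcolce2* and 0.0995 for *Plod2*) or without knockdown 1 (0.189, 0.277 and 0.235), and *Plod2* was also not called without scrambled 1 (0.0911) or knockdown 2 (0.102).

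Further genes of this list had an unadjusted p under 0.05 and were not called. *Serpinh1*, the collagen chaperone HSP47, had 1582 and 1717 reads in scrambled and 1259 and 947 in knockdown (log2 fold change -0.39, edgeR adjusted p = 0.106). *Bmp1*, the procollagen C-proteinase, stood at -0.62 (adjusted p = 0.118), *P3h4*, a partner of the prolyl and lysyl hydroxylases, at -0.43 (adjusted p = 0.152) and the cross-linking enzyme *Loxl1* at -0.48 (adjusted p = 0.200, all from edgeR). On the other side were the cross-linking enzyme *Loxl4* at 0.70 (adjusted p = 0.0511), *Mia3*, which loads procollagen into transport carriers, at 0.58 (adjusted p = 0.0932), the lysyl hydroxylase *Plod3* at 0.51 (adjusted p = 0.126) and the coat protein *Sec24d* at 0.38 (adjusted p = 0.190, all from edgeR). *Loxl1* was called lower under 1 of 13 alternatives, without scrambled 1 (-0.69, edgeR adjusted p = 0.0385). *Loxl4* was called under 4 of 13 alternatives, among them the replicate block (0.69, edgeR adjusted p = 0.0476) and removal of the chromosome medians (0.93, edgeR adjusted p = 0.0134). With the called genes, 5 of the 27 were higher at an unadjusted p under 0.05, against 10.3% of all genes, and 6 were lower, against 11.5%.

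Of 24 genes for collagen receptors, collagen-degrading proteases and their inhibitors, 20 had reads and 11 were tested, with 5 higher and 6 lower and a median log2 fold change of -0.16. *Mmp15*, a membrane-bound matrix metalloproteinase, was the only gene called, against 3.22% of all genes called lower and 2.33% called higher. It was lower (edgeR adjusted p = 0.000444), with 17 and 37 reads in scrambled and 1 in each knockdown library. Over the group totals of 54 and 2 reads this is 22.9-fold lower in knockdown, with a 95% counting interval of 6.05 to 194.3. *Mmp15* was not called without scrambled 2, where its mean normalized count of 6.25 was under the threshold of 10 (adjusted p = 0.000174 from edgeR), nor without knockdown 1 (adjusted p = 0.12 from edgeR), and it was not tested where every library needed 10 counts. The lysosomal proteases *Ctsl* (log2 fold change 0.46, adjusted p = 0.0584) and *Ctsb* (-0.39, adjusted p = 0.100) and the inhibitor *Timp3* (-0.996, adjusted p = 0.0584, all from edgeR) had an unadjusted p under 0.05 and were not called. With *Mmp15* this makes 1 gene higher, against 10.3% of all genes, and 3 lower, against 11.5%. *Timp3* was called lower under 4 of 13 alternatives, among them removal of the chromosome medians (-1.24, edgeR adjusted p = 0.0275).

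Fibroblasts are a main source of fibrillar collagen in muscle, and their markers were read beside these results. Of 7 fibroblast markers, *Dpt*, *Lum* and *Thy1* were at 0 in all libraries, and the summed level was 17.3 and 18.5 CPM in scrambled and 10.2 and 7.32 CPM in knockdown. This sum was lower in knockdown, as were *Col1a2*, *Col5a1*, *Col5a3* and *Col12a1*, and its part in these results was not tested. Among the fibroblast markers *Cd34* had the most reads, 13 and 19 in scrambled against 5 and 4 in knockdown, and was not called (edgeR adjusted p = 0.0563). *Dcn* had 3 and 2 reads in scrambled and 5 and 2 in knockdown. The 6 markers without *Cd34* summed to 11 and 12 reads in scrambled and 9 and 5 in knockdown, or 7.93 and 7.16 against 6.55 and 4.07 CPM. Of the 4 myoblast markers tested, 2 were called lower, against 3.22% of all genes, and none higher, against 2.33%. *Cdh15* was called lower, with 113 and 152 reads in scrambled against 25 and 14 in knockdown, and so was *Des*, with 373 and 571 against 309 and 242 (log2 fold change -0.56, edgeR adjusted p = 0.0308). *Myf5*, with 157 and 190 reads against 158 and 113 (log2 fold change -0.16, edgeR adjusted p = 0.615), and *Vcam1*, with 13 and 18 against 20 and 13 (0.29, edgeR adjusted p = 0.707), were not called. Markers of differentiated muscle (6 of 8 at 0, 5.09 to 11.5 CPM summed), macrophages (3 of 5 at 0, 1.79 to 3.25 CPM) and endothelium (2 of 4 at 0, at most 0.813 CPM) were low in both groups. All libraries came from selected C2C12 lines rather than tissue, so the fibroblast, macrophage and endothelial reads do not show such cells. In these bulk libraries, fewer cells with a marker and less RNA per cell cannot be told apart.

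hnRNP L is known to bind CA repeats in RNA. No spliced reference transcript of the 14 tested collagen genes held 6 or more CA units in a row (12 bases, sense strand, 1 transcript per gene). Among all 8231 tested protein-coding genes, 546, or 6.63%, held such a run. The 14 genes are too few to show a difference from so low a share. Median transcript lengths were 6399 bases for the collagens and 3528 for all. Introns were not searched, and the absence of these letters says nothing about binding.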

How the data were processed

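The deposited values are whole counts per gene, which the authors made with HTSeq 0.9.1 from direct RNA reads basecalled in guppy and aligned by minimap2 2.17 to GRCm39. The annotation release and the strand setting of the counting are not given in the sources used here. Reads without a gene were left out, of which ambiguous reads were 16.0 to 16.5% and reads of low mapping quality 22.7 to 23.8% of all reads. Gene IDs were matched without version to GENCODE vM39 (56017 of 56748). Collagen members and all gene lists were chosen with earlier results of these data known. Counts were fitted in edgeR 4.0.16 (R 4.3.3) with TMM, filterByExpr and the quasi-likelihood test, with Benjamini-Hochberg adjustment over 8670 genes. The thresholds for a call follow the study. Normalized counts are counts scaled by TMM. Every tested collagen gene is named, and genes of other lists are named where called or with an unadjusted p under 0.05. Read ratios were tested with exact permutation. The fit was checked on simulated data. Alternatives were RLE and upper quartile factors, other filters, DESeq2 1.42.0, the replicate block, chromosome medians or a length trend removed, and each library left out. The labels give the replicate number as a batch, which pairs the libraries. Across 7705 genes, scrambled 1 and knockdown 1 deviated from the means of their groups with a correlation of -0.014.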

Additional observations from a re-analysis of the deposited data

How the results depend on the processing

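Each tested collagen gene was fitted under 13 alternatives, and 163 of these values kept their direction and their side of the adjusted p threshold of 0.05, 13 lost it, 1 gained it and 5 changed sign. The call of *Col1a2*, *Col5a1* and *Col5a3* was lost under 1 alternative, the fit without knockdown 1 (adjusted p = 0.081, 0.147 and 0.117 from edgeR), in which 7 genes were called higher and 13 lower of 8670. *Col8a1* lost its call there (adjusted p = 0.152), with the parametric DESeq2 fit (0.182) and with the chromosome medians removed (0.127). For *Col12a1* the adjusted p ranged from 0.00562 to 0.533 over the alternatives. The changes of sign were those of *Col4a1* (-0.0158 with the length trend removed, -0.0337 without scrambled 2 and -0.0284 without knockdown 2, in a range of -0.0337 to 0.0634 with a library left out) and *Col4a2* (0.0279 without scrambled 2 and 0.00588 without knockdown 2, in a range of -0.268 to 0.0279). With 1 library left out, the lone library of a group is assumed to vary like the other group.

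The count of collagen genes called higher was 0 with the parametric DESeq2 fit and with chromosome medians removed, and 0 to 1 with a library left out (0 without knockdown 1). The count called lower was 0 to 5 with a library left out (0 without knockdown 1, 5 without scrambled 2). For synthesis and processing genes, calls higher were 2 with no filter on low counts and 2 with the replicate block (*Loxl4* was added), and 0 to 2 with a library left out (0 without scrambled 2 and without knockdown 1). Calls lower were 1 with the local DESeq2 fit, 0 with the parametric fit, 0 with the chromosome medians removed and 0 to 2 with a library left out (without scrambled 1, *Pcolce2* and *Loxl1*). For receptor and degradation genes, calls lower were 2 with no filter, 2 with the chromosome medians removed (*Timp3* was added in both) and 0 to 2 with a library left out (0, without *Mmp15*, when scrambled 2 or knockdown 1 was left out). Gene by gene, the replicate block changed no other call of the 3 lists and left the collagen counts at 1 higher and 4 lower. The cause of these changes was not tested. The difference in the collagen share of counted reads was -0.0125 percentage points without mitochondrially encoded genes and *Rn18s* in the total and -0.0314 to 0.00164 with a library left out, so the direction of the group means rests on knockdown 2. DESeq2 called 80 higher and 148 lower over all genes with the local fit and 44 and 71 with the parametric fit, against 202 and 279 from edgeR, and 106 and 179 were called with the chromosome medians removed. Collagen genes with 1 to 7 reads in all could not be tested at this depth.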
